A study of Mus musculus with 6 samples.

Results

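The Hox genes encode homeodomain transcription factors, and 38 of them, from all 4 mouse Hox clusters, were followed in the lung of the mouse fetus. They were chosen by name, and not every Hox gene of the mouse is among them. Of the 38, 10 belong to cluster A on chromosome 6, 10 to cluster B on chromosome 11, 9 to cluster C on chromosome 15 and 9 to cluster D on chromosome 2. On the array 35 of the 38 had at least 1 probe whose accession carried their symbol, out of 18217 genes with a symbol in all. Hoxc4, Hoxc6 and Hoxc11 had no such probe and were not analysed here. A total of 45 probes stood for the 35 genes, 25 genes with 1 probe and 10 with 2.

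Whole lungs of 6 embryos at E18.5, shortly before birth, were each hybridised to 1 array. The 3 wild type embryos carried 15-1+/+ and 15-2+/+, and the 3 knockout embryos carried 15-1Flox/Flox and 15-2-/-. ECAT15-2 is Dppa2 and ECAT15-1 is Dppa4, a related gene next to it, so the floxed Dppa4 alleles came with the Dppa2 deletion in every knockout embryo and their effects cannot be told apart. All embryos came from parents that were 15-1+/Flox and 15-2+/-, in a line of mixed strain: 129Sv stem cells, C57/BL6, and transgenic mice expressing Cre or FLPe for which no background is known. The deletion was inherited through the germ line and was not limited to the lung, and the labels name neither litter nor sex. Each sample is 1 embryo, and whether embryos shared a litter is not given.

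Hox genes lie in clusters in an order that follows where they are used along the body, with the low-numbered paralog groups used towards the head and the high-numbered groups towards the tail and the ends of the limbs. Paralogs, the genes of 1 number in different clusters, encode similar proteins and often share tasks. In the lung, Hox genes of the middle groups are known from the mesenchyme around the growing airways. Hoxa5 is known to be needed for the trachea and for the formation of the lung, and Hoxb5 is known from airway branching. The comparison of wild type with knockout asks whether loss of Dppa2, a nuclear protein of pluripotent cells and early embryos, changes gene expression in the lung.

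Levels are log2 intensities relative to the 75th percentile of the same array, so that 0 is that percentile and each unit is a factor of 2 in intensity. Levels of different probes were not compared, because probes differ in how well they bind. The 75th percentile itself lay between intensities of 1445 and 1595, and 63.3% to 68.8% of the 41174 probes per array lay well above background. The lowest level with that flag was between -6.80 and -5.72 on the 6 arrays, and highest on knockout 1. Y-linked genes (4 of 4) were above background on wild types 1 and 2 and on no other array, while Xist was above background on the other 4 arrays, so that sex and genotype are partly confounded. Slide 1 held wild types 1 and 2 with knockout 3, slide 2 held wild type 3, and slide 3 held knockouts 1 and 2. The file names carried the number 4839 for wild types 1 and 2, 4838 for knockouts 1 and 2, and 4938 for wild type 3 and knockout 3. The arrays with Y-linked signal were thus those of file number 4839, and a term for that signal cannot tell sex from file number. Dppa2 had a level of -3.16, -3.45 and -3.49 in wild types 1 to 3 and of -4.88, -4.92 and -3.99 in knockouts 1 to 3. Its difference of -1.23 (standard error, SE, 0.26; n = 3 per group) had an adjusted p of 0.0618 in limma's test, and whether its probe lies in the deleted part is not known. The Dppa2 probe was well above background on all 3 knockout arrays as well as all 3 wild types. Dppa4 was not well above background on any array. Of the lung mesenchyme markers 15 of 15 passed the background filter, and of the lung epithelium markers 13 of 13.

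The first sequences of interest lie in cluster A, where the detected genes met the undetected ones. They are the 250 bases before the start sites of Hoxa5, Hoxa7 and Hoxa9, which were detected on all 6 arrays, and of Hoxa10, which was detected on none. The bases come from RefSeq on GRCm38.p6, are written 5′ to 3′ on the gene's own strand (minus in all 4 cases), and capitals mark the letters GGGCGG, the GC box that Sp1-type factors can bind. The positions are chr6:52204588-52204837 for Hoxa5, chr6:52218574-52218823 for Hoxa7, chr6:52227371-52227620 for Hoxa9 and chr6:52240855-52241104 for Hoxa10. For Hoxa10 this is 1 of 2 windows in the table.
Hoxa5: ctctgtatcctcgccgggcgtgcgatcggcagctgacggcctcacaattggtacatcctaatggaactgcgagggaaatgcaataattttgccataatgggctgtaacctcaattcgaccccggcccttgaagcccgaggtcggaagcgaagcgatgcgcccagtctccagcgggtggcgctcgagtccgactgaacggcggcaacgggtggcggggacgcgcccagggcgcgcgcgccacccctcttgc
Hoxa7: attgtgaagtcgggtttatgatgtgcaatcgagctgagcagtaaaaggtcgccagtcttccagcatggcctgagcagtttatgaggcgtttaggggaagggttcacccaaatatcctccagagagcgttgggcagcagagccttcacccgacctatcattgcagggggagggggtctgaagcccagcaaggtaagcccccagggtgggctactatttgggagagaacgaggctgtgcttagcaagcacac
Hoxa9: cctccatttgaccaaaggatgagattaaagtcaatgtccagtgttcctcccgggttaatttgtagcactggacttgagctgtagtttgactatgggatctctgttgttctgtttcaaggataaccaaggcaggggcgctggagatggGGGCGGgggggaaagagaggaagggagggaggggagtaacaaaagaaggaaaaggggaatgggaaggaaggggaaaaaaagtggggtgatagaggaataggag
Hoxa10: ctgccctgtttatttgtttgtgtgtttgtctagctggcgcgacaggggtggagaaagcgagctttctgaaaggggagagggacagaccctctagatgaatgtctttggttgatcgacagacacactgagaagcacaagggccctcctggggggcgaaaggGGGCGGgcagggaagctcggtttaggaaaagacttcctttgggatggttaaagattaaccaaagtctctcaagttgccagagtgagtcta

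The 4 windows differed in base composition. The Hoxa5 window was 63.6% G and C and held 28 CpG dinucleotides. The Hoxa7 window was 54.8% G and C with 7 CpG, that of Hoxa9 was 49.6% with 3 and that of Hoxa10 was 51.6% with 7. GGGCGG was found on the printed strand of the Hoxa9 window and of the Hoxa10 window, once in each. The other Hoxa10 window in the table held none.

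Promoter windows from 250 bases before to 50 after the start were listed for 22 of the 38 genes, 24 windows in all, against 32851 windows for all genes. The median Hox window was 57.7% G and C with 14.5 CpG dinucleotides, against 52.7% and 7 over all windows. On either strand, AGGTCA, the half-site of nuclear receptors such as the retinoic acid receptors, was in 29.2% of the Hox windows and 16.3% of all windows. TGATNNAT, a core letter pattern of Hox and Pbx pairs, was in 16.7% against 8.8%. GGGCGG was in 41.7% against 35.7%, and TATAAA in 16.7% against 13.6%. Of the genes detected on all 6 arrays only 6 had a window, too few to set their motifs against those of the 17 windows of the other Hox genes with a probe. These matches describe letters and are not sites of binding.

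Detection followed cluster and position. In the lung, 12 of the 35 Hox genes were detected, meaning that 1 and the same probe was flagged well above background on all 6 arrays, and all 12 belonged to clusters A and B and to paralog groups 2 to 9. They were Hoxa2, Hoxa3, Hoxa4, Hoxa5, Hoxa7, Hoxa9, Hoxb2, Hoxb3, Hoxb4, Hoxb5, Hoxb6 and Hoxb7. Over all genes with a symbol, 73.7% met the same rule. A further 8 Hox genes were above background on some arrays and 15 on none. Counting a gene with a probe above background on at least 1 array gave 20 of 35 Hox genes, against 81.8% of all genes.

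Clusters A and B were alike in these counts. Each had 6 genes detected on all arrays, 1 on some and 3 on none, out of 10. No gene of cluster C was detected on all arrays, with 1 on some and 5 on none of the 6 that had a probe. No gene of cluster D was either, with 5 on some and 4 on none of 9. Position showed in clusters A and B: 12 of their 16 genes in groups 1 to 9 were detected on all arrays, and 0 of their 4 genes in groups 10 to 13 on any. Within groups 1 to 9, clusters C and D had 0 of 8 detected on all arrays, so that paralogs of 1 number were not detected alike. In group 5, Hoxa5 and Hoxb5 were above background on all 6 arrays and Hoxc5 on none.

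**Figure D1:**
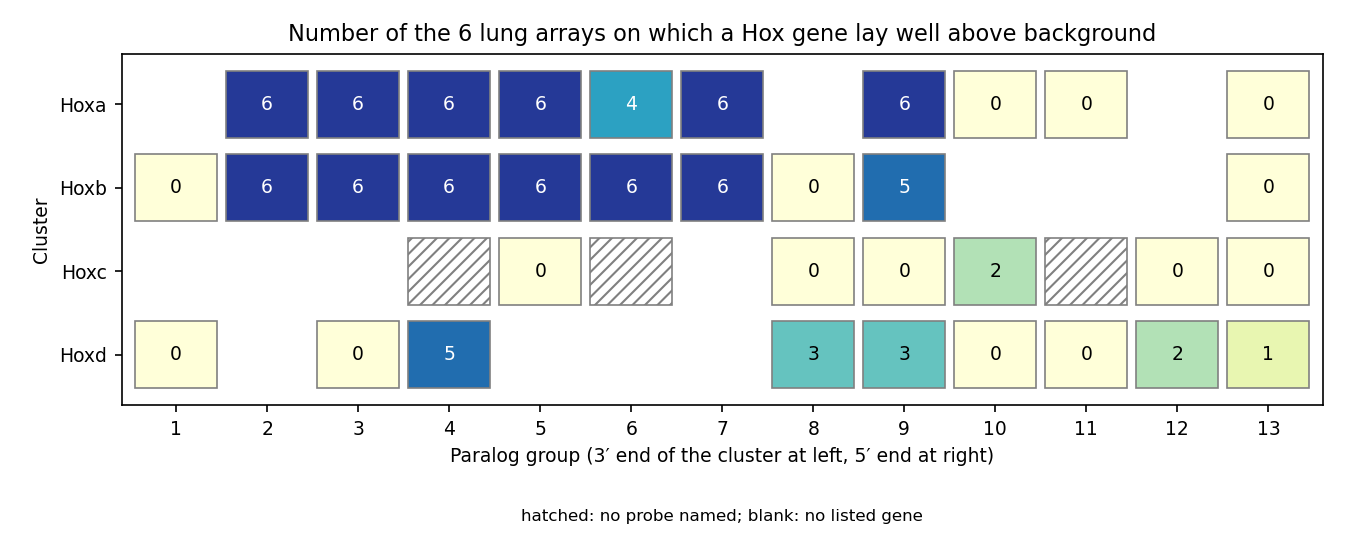
Map of the 38 Hox genes by cluster (rows) and paralog group (columns), each cell giving the number of the 6 arrays on which the gene's probe was well above background. The 12 genes at 6 of 6 arrays lie in clusters A and B, groups 2 to 9, and no gene of groups 10 to 13 reaches 6.

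The number of Hox genes above background was 17, 17 and 15 on wild types 1 to 3, and 14, 18 and 16 on knockouts 1 to 3. These ranges overlapped. Knockout 1, with the fewest Hox genes, also had the fewest probes above background (63.3%) and knockout 2, with the most, also the most (68.8%). The part that this plays in the counts was not tested.

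The 15 genes above background on no array included the posterior genes known from the hind body, limbs and skin. Among them were Hoxa10 and Hoxa11, known from the uterus and limb, Hoxa13, known from digits and hindgut, Hoxb13, known from the prostate, Hoxc13, known from hair and nails, and Hoxd10 and Hoxd11, known from limb and lumbar spine. Hoxc12 completed the posterior group. Of the anterior groups, Hoxb1, known from the hindbrain, and Hoxd1 were among them, as were Hoxd3, Hoxc5, Hoxb8, Hoxc8 and Hoxc9, the last known from thoracic motor neurons. Across the 22 probes above background on no array, the median level was between -8.79 and -7.72 on the 6 arrays, and highest on knockout 1. An array signal at background does not show that a transcript is absent, since a dim or poorly placed probe gives the same reading.

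Of the 8 genes above background on some arrays, some lay near the limit and others, such as Hoxd12 and Hoxc10, spread well to either side of it. Hoxb9, known from the thoracic region, was above it on 5 arrays, with levels of -5.80, -6.88 and -5.99 in wild types 1 to 3 and -4.96, -5.69 and -5.59 in knockouts 1 to 3, and wild type 2 was the array below. Hoxd4, known from the cervical vertebrae, was also above it on 5, with -5.28, -5.21 and -5.84 in wild type and -6.22, -5.40 and -6.10 in knockout. Knockout 1 was the array below for Hoxd4, and the groups overlapped. Hoxa6 was above background on 4 arrays, with levels of -6.39, -5.83 and -5.98 in wild type and -5.77, -6.04 and -5.84 in knockout. Those levels overlapped, and knockout 1, the highest of them, still lay under the limit of its own array, -5.72.

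Hoxd8 and Hoxd9, neighbours in cluster D, were above background on the same 3 arrays, wild types 1 and 2 and knockout 2. Hoxd8 was at -5.71, -5.37 and -6.65 in wild type and -6.13, -5.66 and -6.49 in knockout. Hoxd9 was at -5.70, -5.69 and -6.79 in wild type and -5.98, -5.81 and -7.34 in knockout. For both genes wild type 3 and knockout 3 were the lowest arrays, so that the split ran across the genotypes.

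The other 3 were posterior genes. Hoxd12 was above background on wild types 1 and 2 alone, at -4.54 and -5.69 against -7.77 in wild type 3, and its knockout levels were -6.13, -8.84 and -8.40. Wild type 3 was under background with all 3 knockouts, and no fold is given for Hoxd12. The arrays above background were those with Y-linked signal, which are also those of file number 4839. The part of sex or of file number was not tested for this gene. Hoxc10, known from the hindlimb region, was above background on knockouts 2 and 3, at -6.26 and -5.18, while knockout 1 was at -7.84 and the wild types at -8.65, -8.47 and -8.66. No fold could be given for Hoxc10 over all 3 knockouts, since their mean lay under the detection bound. Without knockout 1 it was called higher in knockout (adjusted p = 0.0332 in limma's test), but it then passed the filter only through the 2 arrays where it is high, after the low one was dropped, so that this call supports nothing. Hoxd13, known from digits, was above background on knockout 1 alone, at -5.63, with knockouts 2 and 3 at -9.03 and -8.53 and the wild types at -8.20, -6.81 and -6.96. Hoxc10 and Hoxd13 each had a second probe that was above background on no array.

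**Figure D2:**
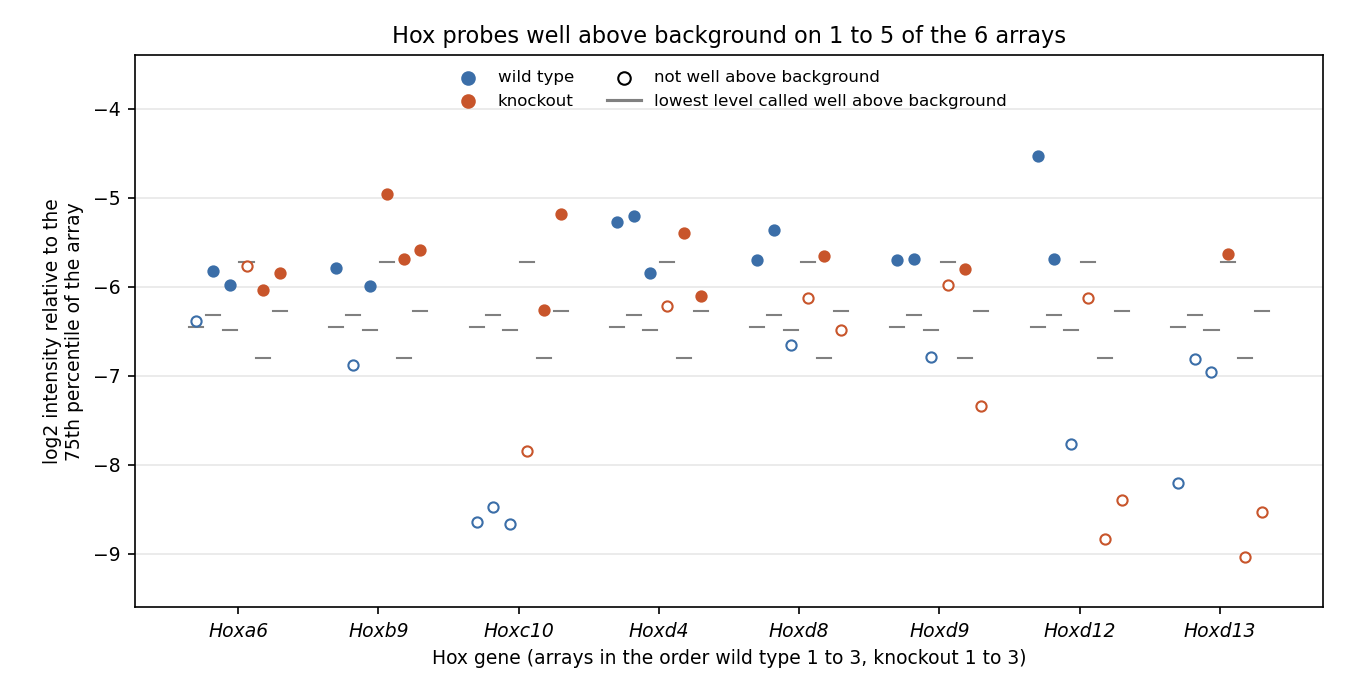
Levels (log2 intensity relative to the array's 75th percentile) of the 8 Hox genes above background on some arrays, 1 point per array, filled where the probe was well above background and open where it was not. Hoxc10 is filled on knockouts 2 and 3 only, at -6.26 and -5.18, and Hoxd12 on wild types 1 and 2 only, at -4.54 and -5.69.

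Levels of the detected cluster A genes mostly overlapped between the genotypes. Hoxa2, known from the hindbrain and second pharyngeal arch, was at -0.76, -0.67 and -0.80 in wild types 1 to 3 and at -0.43, -1.01 and -0.82 in knockouts 1 to 3. Hoxa3, known from the thymus and neck, was at -2.53, -2.60 and -2.79 in wild type and -2.66, -2.89 and -2.59 in knockout. Knockout 2 was the lowest array for both genes, and the groups overlapped. Hoxa4 was at -0.95, -0.68 and -0.89 in wild type and -0.73, -1.06 and -0.90 in knockout. Hoxa5, the cluster A gene best known from the lung, was at 0.75, 0.56 and 0.45 in wild type and 0.41, 0.61 and 0.69 in knockout. For Hoxa5 the lowest and the highest array came from different groups and the ranges overlapped.

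The 2 remaining cluster A genes did not overlap between groups, in opposite directions. Hoxa7, known from the thoracic axis, was at 0.43, 0.38 and 0.09 in wild type and at -0.16, -0.06 and -0.13 in knockout, so that all 3 knockouts lay below all 3 wild types. Wild type 3, the one without Y-linked signal, was the nearest to the knockouts. Hoxa9, its neighbour, was at -3.27, -3.28 and -3.43 in wild type and -3.19, -3.25 and -3.22 in knockout. Every knockout was higher for Hoxa9, but the gap between the closest arrays was small.

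Cluster B held 3 detected genes whose knockout arrays all lay below the wild types. Hoxb2, known from the hindbrain, was at 1.94, 1.99 and 1.80 in wild type and 1.74, 1.67 and 1.75 in knockout. Hoxb5, known from airway branching, was at 1.01, 1.17 and 0.80 in wild type and 0.66, 0.57 and 0.78 in knockout. Hoxb6 was at -0.09, 0.03 and -0.25 in wild type and -0.32, -0.50 and -0.27 in knockout. In all 3 genes wild type 3 was the lowest wild type, as it was for Hoxa7, and knockout 3 the highest knockout. The other cluster B genes overlapped. Hoxb3 was at -0.08, -0.04 and -0.10 in wild type and -0.26, -0.11 and -0.03 in knockout. Hoxb4, known from blood stem cells, was at -2.38, -2.47 and -2.52 in wild type and -2.15, -2.68 and -2.30 in knockout. Hoxb7 was at -1.66, -1.61 and -1.43 in wild type and -1.44, -1.62 and -1.40 in knockout. Because whole lungs were used, fewer cells of a type and less RNA per cell cannot be told apart in any of these levels.

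**Figure D3:**
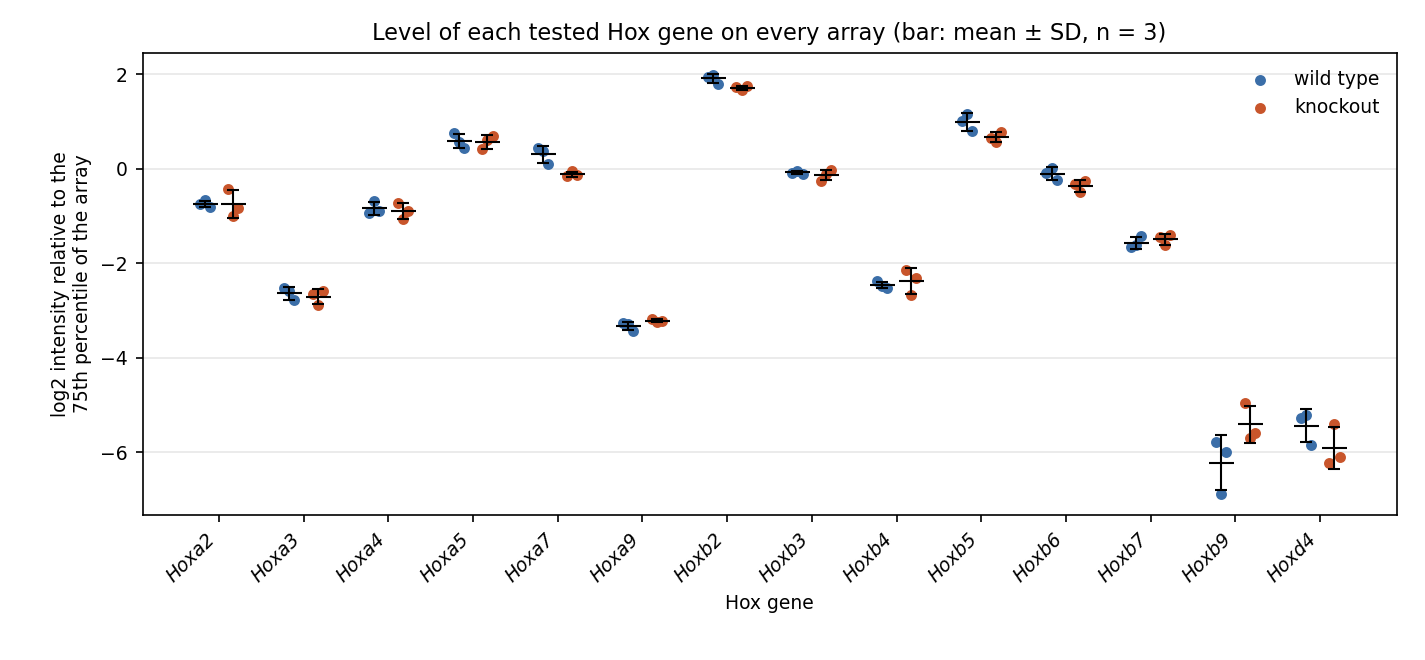
Levels of the 14 tested Hox genes, in log2 intensity relative to the array's 75th percentile, 1 point per embryo, with the mean and standard deviation of each group of 3 as bars. All but Hoxb9 and Hoxd4 were detected on all 6 arrays, and those 2 were above background on 5. The groups do not overlap for Hoxa7, Hoxb2, Hoxb5 and Hoxb6 (knockout lower) and for Hoxa9 and Hoxb9 (knockout higher). Hoxb9 passed the filter only through the knockouts.

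The comparison of genotypes was fitted over all 19866 features with a probe well above background on every wild type array, on every knockout array, or on both sets. It included 14 Hox genes, the 12 detected on all arrays plus Hoxb9, which passed through the knockout arrays, and Hoxd4, which passed through the wild types. The other 21 Hox genes with a probe were not tested. None of the 14 changed at an adjusted p under 0.05 in limma's test, against 1.34% of all features (0.725% higher and 0.619% lower in knockout). At an unadjusted p under 0.05 there were 3 Hox genes, Hoxa7, Hoxb5 and Hoxb9, against 25.8% of all features. The count of 3 among 14 was thus near the share over all features. It includes Hoxb9, which passed the filter only through the knockouts, and among the 12 detected on all arrays the count was 2.

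Differences are in log2 units, and a negative one means that the knockout mean was lower. Of the 14 genes, 10 had a negative difference, against 50% of all features, and their median difference was -0.06 against 0.00 over all features. With arrays scaled to their median in place of the 75th percentile, 13 of 14 were negative and the Hox median was -0.20, while the median of all features was itself -0.14. The sign was the same in every alternative for 6 of the 14, Hoxa7, Hoxb2, Hoxb5, Hoxb6, Hoxb9 and Hoxd4. Several alternatives, such as other filters and the replicate block, leave the difference of these genes as it was. Counts of alternatives with the same sign are therefore not counts of independent checks. The groups did not overlap for 6 of 14, against 31.5% of all features: 4 with the knockouts lower (15% of all features) and 2 with the knockouts higher (16.5% of all features). These counts include Hoxb9 and Hoxd4, which each passed the filter through 1 group, where they are high. Of the 12 genes detected on all arrays, 9 had a negative difference. The knockouts lay below all wild types for 4 of these 12 and above them for 1. The 95% confidence interval lay within 0.5 of 0 on either side for 9 of the 14 genes and within 1 for 12. The exceptions at the wider limit were Hoxb9 and Hoxd4, the 2 genes nearest to background.

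**Figure D4:**
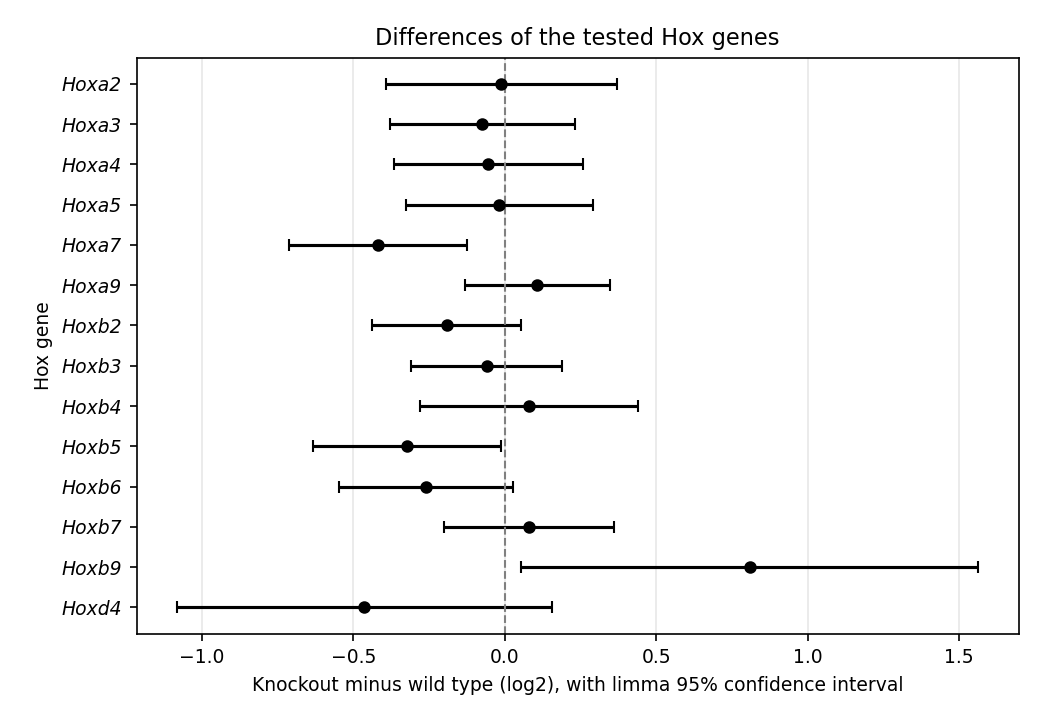
Difference (knockout minus wild type, log2) for the 14 tested Hox genes, with 95% confidence intervals from limma (3 embryos per group). The intervals of Hoxa7, Hoxb5 and Hoxb9 leave out 0, and those of the other tested Hox genes include it; the intervals are not adjusted for the number of features.

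Hoxa7 had the smallest p among the Hox genes, with a difference of -0.42 (SE 0.12), or 1.34-fold lower, and an adjusted p of 0.107 in limma's test. An exact permutation test (two-sided) gave p = 0.1, the smallest that 3 against 3 can give. The difference was negative in all 21 alternatives run, some of which leave it unchanged, and lay between -0.56 and -0.21. It was called in 1 of the 19 with a test, that without wild type 3 (-0.52, adjusted p = 0.0423). With a term for Y-linked signal, which also marks the arrays of file number 4839, it was -0.21. Within slide 1 it was -0.54 and within the arrays of file number 4938 it was -0.22, each from fewer arrays and without a test.

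Hoxb5 had a difference of -0.32 (SE 0.13), or 1.25-fold lower, with an adjusted p of 0.182 in limma's test and an exact permutation p of 0.1. Its difference was negative in all 21 alternatives, some of which leave it unchanged, from -0.46 to -0.02. It was called in 0 of the 19 with a test. It was -0.13 with a term for Y-linked signal, and -0.02 within file number 4938, where wild type 3 and knockout 3 are compared. Hoxa5, in the same paralog group, had a difference of -0.02 (SE 0.13), a 95% confidence interval from -0.33 to 0.29 and an adjusted p of 0.94 in limma's test. Its sign changed in 8 of the alternatives, so no direction is given for Hoxa5.

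Hoxb9 had a difference of 0.81 (SE 0.32), with an adjusted p of 0.172 in limma's test and an exact permutation p of 0.1. It passed the filter only through the knockout arrays, where it is high, so that its difference and p support nothing and no fold is given. Its interval, 0.05 to 1.56, was the widest of the 14, and its probe in wild type 2 lay at -6.88, below the background limit. Without wild type 2 the difference was 0.48, and with normexp background correction it was 0.14. It was positive in all 20 alternatives, some of which leave it unchanged, up to 1.02, and was called in none. The second Hoxb9 probe was above background on no array, so that only 1 probe carries this value.

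**Figure D5:**
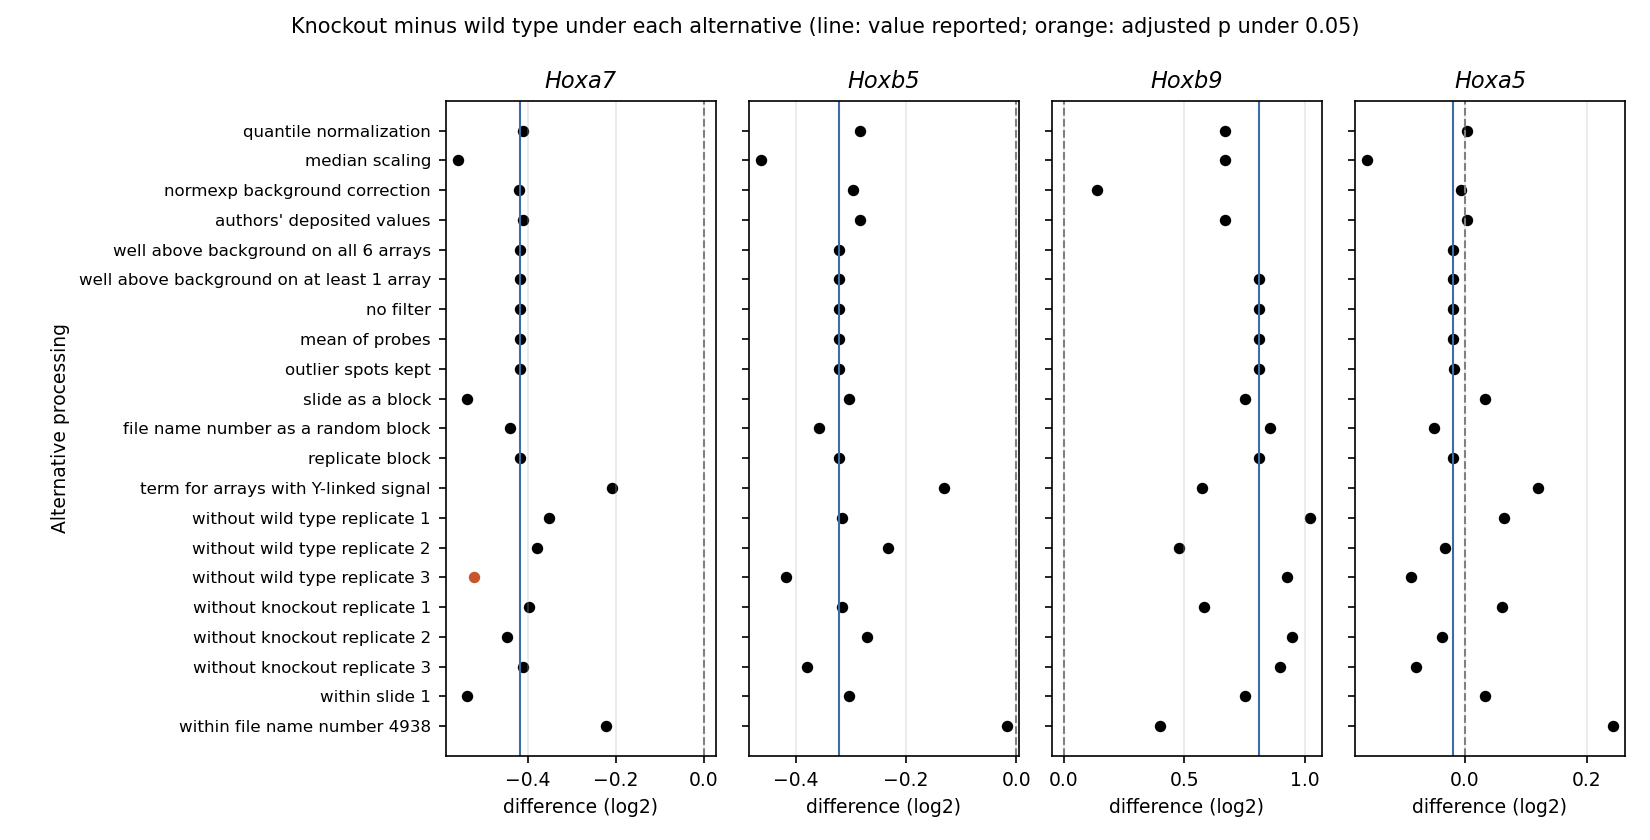
Difference of knockout minus wild type (log2) for Hoxa5, Hoxa7, Hoxb5 and Hoxb9 under each alternative way of processing, 1 point per alternative, with the value of the analysis described here marked. Hoxa7 stays between -0.56 and -0.21, Hoxb5 between -0.46 and -0.02 and Hoxb9 between 0.14 and 1.02, while Hoxa5 lies on both sides of 0.

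The other differences were smaller or less sure. Hoxb6 had a difference of -0.26 (SE 0.12, adjusted p = 0.229 in limma's test) and Hoxb2 of -0.19 (SE 0.10, adjusted p = 0.285 in limma's test). Hoxd4 passed the filter only through the wild types, with knockout 1 below background, and had a difference of -0.46 with an interval of -1.08 to 0.16. The Hoxd4 difference was -0.31 without knockout 1, -0.72 without knockout 2, -0.86 with slide as a block and -0.06 with a term for Y-linked signal. Hoxa2, Hoxa3, Hoxa4, Hoxa9, Hoxb3, Hoxb4 and Hoxb7 had differences from -0.07 (Hoxa3) to 0.11 (Hoxa9). Second probes on all 6 arrays were available for 3 of the detected genes. The second probe of Hoxa3 gave 0.09 against -0.07, that of Hoxa4 gave 0.04 against -0.06 and that of Hoxb3 gave -0.05 against -0.06, so that for Hoxa3 and Hoxa4 the sign differed between probes while each value was smaller than its SE.

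Partners and regulators of Hox proteins were read from lists. The Pbx, Meis and Pknox cofactors, which bind DNA together with Hox proteins, were all tested, 9 of 9, and 0 changed at an adjusted p under 0.05 in limma's test, with 7 negative differences and a median of -0.10. Those with the smallest p were Meis3 (0.43, adjusted p = 0.105 in limma's test), Pbx4 (-0.52), Pknox2 (-0.54) and Pknox1 (-0.25). The Polycomb and trithorax proteins, which keep Hox clusters silent or active, were tested for 28 of 29 genes, and 0 changed, with 16 negative and 12 positive differences and a median of -0.03. Kdm6a, an X-linked demethylase, had the largest positive difference at 0.64 (adjusted p = 0.0667 in limma's test). Its lowest levels, -1.65 and -1.59, were on wild types 1 and 2, the arrays with Y-linked signal, against -1.22 on wild type 3. The part of sex or of file number was not tested.

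Retinoic acid turns on the early genes of the Hox clusters during development. Of 15 genes of its synthesis, breakdown and receptors, 12 were tested and 0 changed, with 10 negative differences and a median of -0.26, against 0.00 over all features. Aldh1a2, the main embryonic enzyme of retinoic acid synthesis, was at 1.88, 2.39 and 1.63 in wild type and 1.19, 1.38 and 1.38 in knockout, without overlap. Its difference was -0.65 (adjusted p = 0.111 in limma's test). Aldh1a3 (0.83), Crabp1 (-1.19) and Aldh1a1 (-0.36) came next by p. The receptors Rarb (-0.26) and Rarg (-0.27) were also lower on every knockout array, as were 15% of all features. They did not pass the test, and both were picked after their values were seen. The other receptors tested, Rara (-0.08), Rxra (0.11), Rxrb (-0.29) and Rxrg (-0.07), overlapped between groups.

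Of the genes flanking the Hox clusters 13 were tested and 0 changed, with a median of 0.02. Lnpk, near the Hoxd cluster, was the nearest to the threshold at 0.58 (adjusted p = 0.0683 in limma's test). Among the caudal, ParaHox and Evx relatives of the Hox genes, Cdx1, Cdx2 and Cdx4 were above background on no array. Of the 8 listed only Evx2 (0.89) and Gsx1 (0.34) were tested, without a change. Evx2 was above background on every array. Of the noncoding RNAs of the clusters 1 of 15 had a probe, Hoxd3os1, and it was above background on no array.

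Marker lists for tissues that a lung dissection can hold were set beside the Hox values. The lists were chosen with earlier results of these data known, so that their counts describe the lists and test nothing. The summed level of a list is the log2 of the sum of its tested members' intensities, so that the brightest probes weigh most. The summed level of the 15 lung mesenchyme markers, where lung Hox genes are mainly known, was 8.0 to 8.1 in wild type and 8.0 to 8.2 in knockout, and 0 of 15 changed. Those of smallest p were Vim (0.40, adjusted p = 0.0996 in limma's test), Meox2 (-0.49), Fgf10 (-0.36) and Pdgfra (0.34). Among the 15, the groups did not overlap for Vim, Meox2 and Fgf10 alone, while they did not overlap for 31.5% of all features. The summed level of the 13 lung epithelium markers was 8.46 to 8.87 in wild type and 8.43 to 8.54 in knockout. None of the 13 passed limma's test at an adjusted p under 0.05, while 5 had an unadjusted p under 0.05, against 25.8% of all features. Scgb1a1, a club cell secretory protein, had a difference of -1.74 (adjusted p = 0.0742 in limma's test) and Aqp5, a water channel of alveolar cells, of -1.11 (adjusted p = 0.084 in limma's test), both without overlap, followed by Epcam (0.40) and Foxa2 (-0.30). The summed level of heart markers was 4.85 to 4.99 in wild type and 3.59 to 3.74 in knockout, and 7 of the 10 heart markers fell, against 0.619% of all features, among them Myl3 (-2.45, adjusted p = 0.00264 in limma's test) and Nkx2-5 (-1.74). Against the same share, of the skeletal muscle markers 1 of 7 tested fell, Ckm (-2.05), and of the brown fat markers 1 of 4, Cox8b (-1.69), with Ucp1 above background on no array. Both lists went both ways. Skeletal muscle had 5 negative and 2 positive differences with a median of -0.13, and brown fat 3 and 1 with a median of -0.18. The heart list moved with the genotype in the same direction as Hoxa7 and Hoxb5, and its part in those values was not tested.

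Markers of posterior tissues were set beside the posterior Hox genes. Of the hindlimb and pelvic list, Pitx1, a hindlimb factor, was at -7.09, -6.23 and -7.12 in wild type and at -0.27 and -0.95 in knockouts 1 and 2, its spot on knockout 3 being left out for an outlier flag. It was above background on 1 wild type array and passed the filter through the knockouts, and limma's test called it higher there (adjusted p = 0.00345). Since it passed only through the group where it is high, this call supports nothing. No fold is given for Pitx1, since its wild type level is mostly a background reading and its knockout mean rests on 2 arrays. Tbx4 (0.59) did not pass. Hoxc10, the hindlimb-region gene above, was at -7.84, -6.26 and -5.18 in knockouts 1 to 3, with knockout 1 under background, and the part of hindlimb or pelvic tissue in Hoxc10 was not tested. Of the limb mesenchyme markers 3 of 8 were tested and 0 changed, with Shox2 and Lmx1b above background on no array. Of the 12 cartilage and bone markers tested, 1 was called higher, Col9a2 (0.80), against 0.725% of all features, and 1 lower, Acan, against 0.619%. Acan was above background on no knockout array. It passed the filter only through the wild types, where it is high, so that its call supports nothing and no fold is given. The 12 markers went both ways, with 8 positive and 4 negative differences.

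The remaining lists covered other organs and blood. For the kidney and urogenital tract 3 of 10 were tested and 0 changed. Cdh16, a cadherin known from the kidney, was at 3.80, 3.32 and 4.12 in wild type and 4.54, 4.43 and 4.53 in knockout (0.76, adjusted p = 0.0883 in limma's test), without overlap. Wt1 (-0.21) and Lhx1 (0.09) overlapped between groups, and Pax2, Pax8 and Umod were above background on no array. For the gut epithelium 3 of 7 were tested, for oesophagus, thymus, thyroid and pharynx 4 of 10, and for spinal cord and ganglion neurons 6 of 14, each with 0 changed. Of the blood cell markers 1 of 7 rose, Hba-x, an embryonic globin, by 2.41, against 0.725% of all features. The part of these tissues in the Hox values was not tested.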

How the data were processed

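Arrays from 6 embryonic lungs, 3 per genotype, were compared. Per the labels' protocols, Trizol RNA was labelled with Cy3. Per the file headers, spots were quantified with Agilent Feature Extraction 10.7.3.1 on a design that refers to mm9. The deposited intensity per spot is background-subtracted and not scaled between arrays, and the deposited flags, such as well above background, are the scanner software's own. The authors also deposited log2 values. Against quantile-normalized log2 intensities of the same arrays they had slopes from 0.999 to 1 and correlations of at least 0.992, and their wild type median was within 0.001 of 0 for 100% of the probes, with column medians of 0 for each wild type and 0.0108, -0.00698 and -0.000844 for knockouts 1 to 3. These served as an alternative; the design text names GeneSpring and no normalization method.

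Here log2 intensity (from the deposited intensity) was set relative to each array's 75th percentile, spots of a probe were averaged without outlier flags (77 to 110 spots per array), and each gene took its probe with the highest mean. The genotypes were set against each other in limma 3.58.1 (R 4.3.3), with lmFit and eBayes, two-sided tests, no covariate and Benjamini-Hochberg adjustment over all 19866 features. The script was tested on simulated data. Probe names came from RefSeq accessions (26690 of 41174 probes, 64.8%). With 3 arrays per group, their number limits the precision. All 38 Hox genes are named; differences were followed through the alternatives for those with an unadjusted p under 0.05 and for paralog group 5, and up to 4 genes of smallest p are named in other lists. The genes and lists were chosen with earlier results of these data known. The normexp alternative used median spot signals, with local backgrounds flagged as not uniform set to the array's median. Alternatives covered scaling, background, filter, probe choice, slide, file number, replicate number, Y-linked signal and leaving out each array.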

Additional observations from a re-analysis of the deposited data

Results flagged for a closer look

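Signal above the wild type arrays appeared in 2 Hox probes that the comparison of genotypes did not test. Hoxc10 reached -5.18 (log2 relative to the 75th percentile) on knockout 3, and no wild type array was above background for it. Hoxd13 reached -5.63 on knockout 1 alone, near the limit of that array, -5.72, the highest limit of all arrays. No wild type array was above background for Hoxd13 either, and knockouts 2 and 3, at -9.03 and -8.53, lay below every wild type. For both genes a second probe was above background on no array. Hoxd12, also not tested, went the other way and was above background on wild types 1 and 2 alone.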

How the results depend on the processing

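No Hox gene was called in the analysis described or in 17 of 19 alternatives with a test; leaving out 1 array at a time gave 0 to 1 calls, Hoxa7 without wild type 3 and Hoxc10 without knockout 1. The count of changed features over all genes moved from 267 (144 higher, 123 lower) to 92 with probes above background on at least 1 array, 28 with no filter, 17 with slide as a block, 23 with a term for Y-linked signal and 1520 with file number as a random block, and leaving out 1 array gave 37 (without wild type 1) to 1859 (without wild type 3). Quantile normalization called 59 higher and 138 lower, median scaling 82 and 240, normexp 143 and 187, and the authors' values 60 and 137. Median scaling shifted all features by -0.14 and the median Hox difference to -0.20. With no filter that median was 0.080 and 17 of 35 Hox genes were negative; leaving out arrays gave medians from -0.15 to -0.012. Detection on at least 1 array gave 20 genes. Hoxa5 turned positive under quantile normalization (0.0045), the authors' values (0.0045), slide as a block (0.034), the Y-linked term (0.12), within slide 1 (0.034) and within file number 4938 (0.24), and ranged from -0.088 to 0.064 without single arrays. The replicate block gave 48 changed features and 0 Hox genes. Deviations from the group means correlated at -0.02, 0.04 and 0.03 between same-numbered arrays. With 3 arrays per group these values cannot decide whether the numbers pair the embryos. The cause of these shifts was not tested.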
